A study of Gasterosteus aculeatus with 36 samples.

Results

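The cell cycle and DNA replication genes of the threespine stickleback (*Gasterosteus aculeatus*) were followed in whole embryos and larvae. Members were chosen by symbol alone: the A, B, D and E cyclins, *cdk1*, *cdk2*, *cdk4* and *cdk6*, and symbols that begin with cdc, cenp, mcm, orc, aurk, plk1, plk4, bub1, ndc80, gins, espl1, pcna, rrm, top2, ncap, e2f or mad2l1. The 9 genes named for the small GTPase Cdc42, which share only the prefix, were left out. The rule found 104 of the 24388 genes in the normalized table, of which 102 had enough reads to be tested. The other 2, *cdcp2* and *mcmdc2*, had at most 13 and 22 reads in a fish. By role, 83 members were placed in lists of the cell division machinery. The other 21 were left outside these lists and are mixed: many have other or additional roles, and some, such as *cdca2*, act in division.

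RNA was sequenced from 36 single whole fish in 12 groups of 3, females and males at each of 6 time points. These were stage 17 (early somite formation), stage 20 (first pigment), stage 23 (yolk sac circulation complete), and larvae at 0, 4 and 8 days post hatching (dph). All fish were untreated and lab-reared, and the labels name no strain, clutch or batch. Each library holds the RNA of every tissue of 1 fish, and all values are relative to the other reads of that library. Fewer dividing cells, less RNA per cell and more RNA of other genes or tissues thus cannot be told apart. As nothing ties the fish to separate crosses, p-values measure only the spread between these fish.

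As background, a cell enters the division cycle when D cyclins with CDK4 and CDK6 release E2F transcription factors, which switch on cyclin E and the replication genes. The origin recognition complex, CDC6 and the MCM helicase license replication origins, and CDC45 and GINS join the helicase when an origin fires. Cyclins A and B with CDK1 then drive mitosis, condensins and topoisomerase II shape the chromosomes, and CDC20 with the anaphase-promoting complex (APC/C) ends it. Embryos at somite stages divide widely, whereas many muscle and nerve cells of a larva have left the cycle.

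Counted reads per fish ranged from 8637205 to 52089185 with a median of 23246848, and the shallowest library was stage 17 male 3. For all 36 fish, the fish with the most similar profile was one of the same stage. Lists of genes used as markers of other cell types were set beside the members, and which cells their reads came from was not tested. Skeletal muscle markers (9 genes) took 0.00654% to 0.0144% of counted reads at stage 17 and 4.19% to 6.26% at 8 dph. Neuron markers (9 genes) took 0.00843% to 0.0103% at stage 17 and 0.126% to 0.168% at 8 dph. Exocrine pancreas markers (6 genes) took 0.00398% to 0.00738% at stage 17, a mean of 0.00134% at stage 23 and 0.28% to 0.681% at 8 dph. Of the 9 muscle, 9 neuron and 6 pancreas markers, all were called higher at 8 dph than at stage 17 by the edgeR test that was also used for the members, where 48% of all genes were. Other lists took other courses. Germ cell markers (22 tested) went from a mean of 0.00945% at stage 17 to 0.00691% at 8 dph. Of these, 14 genes were called lower and 4 higher, where 39.4% and 48% of all genes were. Erythroid markers (5 genes) went from 0.00516% at stage 17 to 0.0969% at stage 23, 0.0117% at 4 dph and 0.0231% at 8 dph, and liver markers (5 genes) from 0.149% at stage 17 to 0.485% at hatching and 0.275% at 8 dph. Their part in the results below was not tested.

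Together, the 104 members fell from 0.824% ± 0.0316 of counted reads at stage 17 (SD, n = 6 fish) to 0.185% ± 0.0190 at 8 dph. Among the stage 17 fish the share ranged from 0.772% to 0.865%, and at stage 20 from 0.705% to 0.843%, so that these stages overlapped. At stage 23 it ranged from 0.42% to 0.518%, at 0 dph from 0.235% to 0.282%, at 4 dph from 0.198% to 0.229% and at 8 dph from 0.166% to 0.217%. From stage 20 to stage 23, to 0 dph and to 4 dph, every fish lay below every fish of the stage before, and the fish of 4 and 8 dph overlapped. The share of muscle markers moved the other way, with a mean of 0.0104% at stage 17, 0.315% at stage 20, 0.882% at stage 23 and 2.87% at 0 dph. Within a stage both shares were not ordered 1 way. At stage 23, male 2 had the highest member share (0.518%) and the lowest muscle marker share (0.632%), and at stage 20 male 2 likewise (0.843% and 0.248%). At stage 17, male 2 had the highest of both (0.865% and 0.0144%), as had male 1 at 4 dph (0.229% and 5.12%). Members also varied together between fish of 1 stage. The number that lay above their own stage mean ranged from 29 to 74 of 102 in the fish of stage 17, from 19 to 80 in those of stage 23 and from 23 to 82 in those of 8 dph. The median distance of the members from that mean ranged from -0.085 to 0.054 on the log2 scale at stage 17 and from -0.18 to 0.22 at 8 dph, both small beside the change between these stages.

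**Figure D1:**
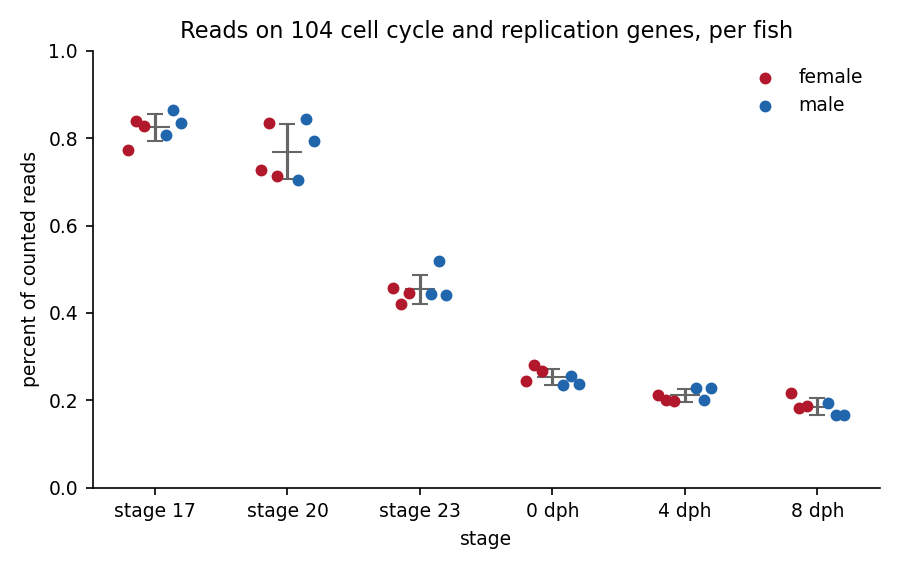
Share of counted reads taken by the 104 cell cycle and DNA replication genes (y axis, percent) in each of the 36 fish by stage (x axis), females and males in separate colours, with bars for the mean and SD over the 6 fish of a stage. The mean drops from 0.824% at stage 17 to 0.454% at stage 23 and 0.185% at 8 dph, and the fish of stages 17 and 20 overlap.

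Each of 22168 genes was tested with edgeR's quasi-likelihood test in 1 fit of all 36 fish, and a gene was called at a Benjamini-Hochberg adjusted p under 0.05. A log2 difference of 1 is a 2-fold difference. Between stage 17 and 8 dph, 95 of the 102 tested members were called lower, against 39.4% of all genes, and 6 were called higher, against 48% of all genes. A decrease of at least 2-fold was called for 87 members, against 23.9% of all genes. The median change of the members was -2.36 on the log2 scale, against 0.24 for all genes. Every fish of stage 17 lay above every fish of 8 dph for 92 members (90.2%), against 31.4% of all genes. A difference among the 6 stages of any shape was called for 100 of 102 members and for 97.2% of all genes, shares that lie close together.

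The decrease was uneven over the 5 adjacent steps. These steps differ in length, and the changes were not scaled to it. From stage 17 to stage 20, 48 members were called lower and 12 higher, where 30.1% and 34.3% of all genes were called, and the median of the members was -0.24 against 0.01 for all genes. Of these, 5 members were higher by at least 2-fold, where 21.6% of all genes were. The count of lower members at this step was 27 in males alone, 37 in females alone, 32 with scaling by total counts and 55 with DESeq2. Over all alternatives it ran from 27 to 55. From stage 20 to stage 23, 90 members were called lower and 2 higher (28.1% and 30.2% of all genes), with a median of -0.82 against 0.01, and 32 fell at least 2-fold (4.22% of all genes). From stage 23 to hatching, 85 were called lower and 2 higher (24.7% and 33.7% of all genes), with a median of -0.75 against 0.08, and 28 fell at least 2-fold (3.55% of all genes). The steps into stage 23 and into hatching were those with the most calls and the largest medians of the 5 adjacent steps.

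After hatching the changes were smaller. From 0 to 4 dph, 50 members were called lower and 1 higher, where 24.4% and 24% of all genes were called, with a median of -0.29 against -0.01. The count of lower members was 33 with DESeq2, 33 with its size factors in edgeR, 23 and 27 without replicate 2 or 3 of every group, and 13 in males alone. From 4 to 8 dph, 24 were called lower and 1 higher (9.47% and 8.44% of all genes), with a median of -0.18 against 0.00. That count was 6 without replicate 2, 2 without replicate 3, 9 in males alone and 0 in females alone. In a fit of the 18 females the median of this step was -0.04, and in a fit of the 18 males it was -0.38.

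The medians moved with the scaling of the libraries, and their distance from the median of all genes moved less. A change of scaling shifts all genes by nearly the same amount, so that this distance could hardly move. It describes the members beside all genes and is no test of the scaling. Scaling by total counts alone shifted the median of all genes by 0.12 at the first step, 0.13 at the second and -0.15 at the third. Between stage 17 and 8 dph, the size factors of DESeq2 in edgeR shifted that median by 0.08. DESeq2 itself, which also differs in the genes kept and in the model, shifted it by 0.11. Relative to the median of all genes, the member median at the first 3 steps was -0.25, -0.83 and -0.83 in the main fit and -0.25, -0.83 and -0.83 by total counts. The same distance between stage 17 and 8 dph was -2.60 in the main fit, -2.60 by total counts and -2.56 by DESeq2. For 8 dph against stage 17, the same 95 members were called lower in each of these fits.

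**Figure D2:**
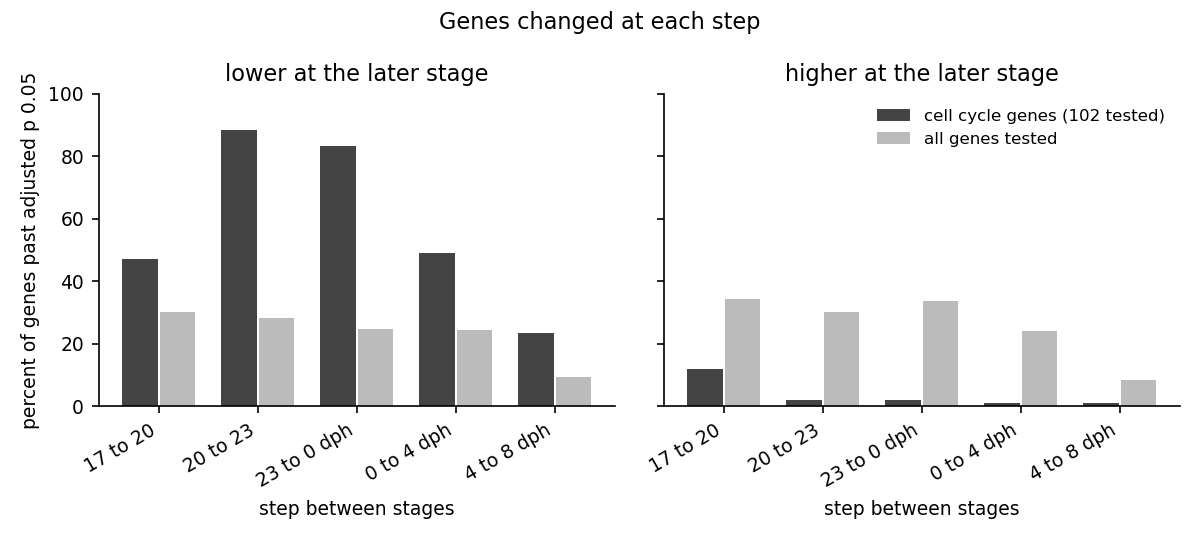
Percent of genes called (y axis, adjusted p under 0.05) at each of the 5 adjacent steps (x axis), lower at the later stage in the left panel and higher in the right, dark bars for the 102 tested members and light bars for all genes. The dark bars for lower genes are highest at the steps into stage 23 (90 members) and into hatching (85), and lowest from 4 to 8 dph (24).

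By the stage with the highest mean, 79 of 102 members (77.5%) peaked at stage 17 and 16 (15.7%) at stage 20, against 32.5% and 9.61% of all genes. None peaked at stage 23, 1 (0.98%) at hatching, 2 (1.96%) at 4 dph and 4 (3.92%) at 8 dph. Of all genes, 6.83%, 9.93%, 13.6% and 27.5% peaked at these stages in order. Those of stage 20 were *ccnd1*, *ccnd2a*, *ccndx*, *ccnb3*, *e2f1*, *e2f2*, *e2f8*, *cdc25b*, *cdc6*, *orc4*, *gins3*, *ncapg2*, *cenpl*, *cenpn*, *cdca3* and *cdc123*. These are peaks by mean alone, and not all are called rises, as only 12 members were called higher from stage 17 to stage 20. For *cdc6* the means were 219 at stage 17 and 221 at stage 20. The mean was lower at each of the 5 steps for 54 members (52.9%), against 7.96% of all genes.

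The genes that start the cycle, the D and E cyclins with CDK2, CDK4 and CDK6, had 8 of 9 tested members lower at 8 dph than at stage 17, each by at least 2-fold. Their median was -2.64. Of all genes, 39.4% were called lower over this span and 23.9% by at least 2-fold, shares that also apply to the role lists below. *ccne1*, which encodes the cyclin E that activates CDK2 at the start of S phase, ranged from 596 to 928 (median 784) normalized read counts in the fish of stage 17 and from 53.2 to 71.6 (median 59.5) in those of 8 dph. Its fish were apart at the first step already, ranging from 232 to 398 (median 349) at stage 20. *ccne1* fell by 3.73 ± 0.17 on the log2 scale (SE), 13.3-fold (edgeR adjusted p = 4.87e-19), and *ccne2*, the other cyclin E gene, fell by 3.71 ± 0.15. At the first step *ccne1* fell by 1.18 ± 0.15, 1 of the 3 largest decreases there, while *ccne2* changed by -0.36 ± 0.13 at that step and by -1.58 ± 0.13 at the next.

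The kinases of this list did not share 1 course. *cdk4*, the first partner of D cyclins, ranged from 2671 to 3091 (median 2922) at stage 17 and from 429 to 479.9 (median 449) at 8 dph, with no overlap, and fell by 2.75 ± 0.079 (adjusted p = 7.75e-24). It had its largest losses at the first step (-0.95 ± 0.074) and after hatching (-0.73 ± 0.075 from 0 to 4 dph). *cdk6*, the other such partner, ranged from 4098 to 4484 (median 4284) at stage 17, from 1018 to 1199.8 (median 1106) at hatching and from 960.3 to 1185 (median 1181) at 8 dph, so that hatching and 8 dph overlapped. *cdk6* fell by 1.99 ± 0.065 over the whole course. *cdk2*, the kinase of cyclin E, fell by 2.63 ± 0.13, with its largest single loss between 0 and 4 dph (-0.76 ± 0.12).

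The D cyclins, which sense growth signals, went different ways. *ccnd1* ranged from 1229 to 1436 (median 1358) at stage 17, from 1487 to 2215 (median 1777) at stage 20 and from 469.6 to 606 (median 493) at 8 dph. It rose by 0.48 ± 0.085 to stage 20 (adjusted p = 1.4e-05) and fell by 1.23 ± 0.086 to stage 23, and it was 2.74-fold lower at 8 dph than at stage 17. *ccndx*, a further D-type cyclin gene on few reads, had a median of 25.1 at stage 17, 118 at stage 20 and 29.8 at stage 23. It showed the largest increase of any member at the first step (2.16 ± 0.30, adjusted p = 3.16e-07) and the largest decrease at the second (-1.87 ± 0.29). *ccnd3*, also on few reads (at most 39 in a fish), fell by 1.56 ± 0.32 to stage 20, the largest decrease of that step. Its call between 4 and 8 dph (-1.12, adjusted p = 0.032) was lost without any 1 of the replicate numbers (adjusted p from 0.0705 to 0.356).

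*ccnd2a* was the exception. It ranged from 395 to 1261 (median 873) at stage 17 and from 698 to 1669 (median 1197) at 8 dph over both sexes, and these ranges overlapped. Within each sex they did not. Females went from 1101 to 1261 at stage 17 up to 1542 to 1669 at 8 dph, and males from 395 to 645 up to 698 to 853. Its level differed by sex, as described with the sexes. Over both sexes it rose by 0.76 ± 0.10 to stage 20 and was not called at any later step, ending 0.45 ± 0.10 above stage 17 (adjusted p = 9.45e-05).

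The E2F factors, which carry the start signal to the promoters of replication genes, had 6 of 7 tested members lower at 8 dph (5 by at least 2-fold), with changes from -3.27 to 1.05. *e2f7* and *e2f8* encode atypical E2Fs that repress their targets. *e2f7* ranged from 664 to 711 (median 703) at stage 17 and from 57.4 to 117 (median 68.4) at 8 dph, with no overlap, and fell by 3.27 ± 0.16 (adjusted p = 3.02e-18), the largest decrease of the list. *e2f8* had its main loss at the step into hatching (-1.71 ± 0.14), the largest of any member at that step. Among the activating factors, *e2f1* ranged from 1094 to 1299 (median 1213) at stage 17 and from 288 to 361 (median 313) at 8 dph, with no overlap, and was called lower (adjusted p = 2.58e-15), and *e2f3* changed by -2.67 ± 0.18 over the whole course. *e2f2*, the third of them, had risen first, from a range from 498 to 607 (median 586) at stage 17 to from 998 to 1361 (median 1166) at stage 20, apart from each other. That increase was 1.05 ± 0.11 (adjusted p = 1.09e-09), and over the whole course *e2f2* fell by 1.95 ± 0.12. *e2f6*, a repressor, fell by 0.86 ± 0.12.

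*e2f5*, a repressor-type E2F that works with pocket proteins, was called higher at 8 dph (1.05 ± 0.23, adjusted p = 9.95e-05), on 7 to 93 reads per fish. Its values ranged from 12.7 to 28.7 (median 15.2) at stage 17, from 34.3 to 46.3 (median 36.9) at stage 20, from 14 to 23.32 (median 17.8) at 4 dph and from 18.3 to 51.1 (median 42.4) at 8 dph. It was the 1 member called higher between 4 and 8 dph (1.09 ± 0.22, adjusted p = 0.000938).

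**Figure D3:**
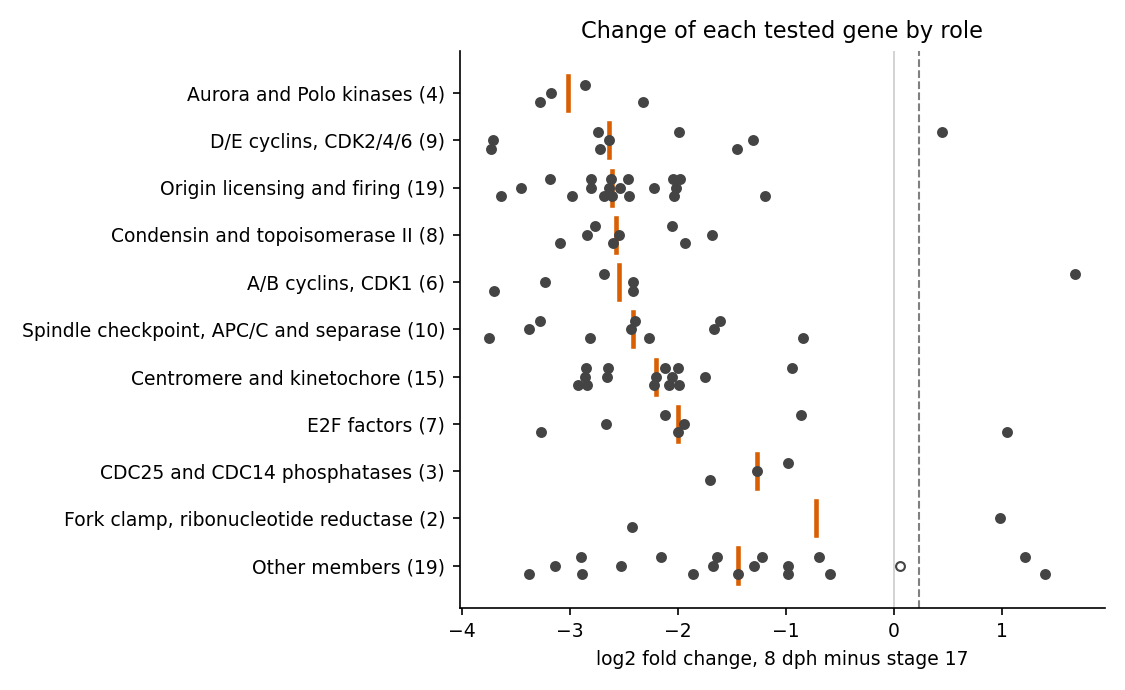
Log2 change from stage 17 to 8 dph (x axis) for each of the 102 tested members, grouped by role (y axis, number tested in parentheses), with filled points called by edgeR, an open point not called, a bar at the median of each group and a dashed line at the median of all 22168 genes (0.24). Group medians run from -3.02 for the Aurora and Polo kinases to -0.72 for the pair of *pcna* (fork clamp) and *rrm2b* (ribonucleotide reductase). All 19 origin genes lie below -1.

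Origin licensing and firing was the largest role list, and all 19 of its members were lower at 8 dph, each by at least 2-fold (median -2.61, range -3.64 to -1.20). All 19 were called lower at the step into stage 23 and 17 at the step into hatching, where 28.1% and 24.7% of all genes were. *orc1*, the subunit of the origin recognition complex whose level follows the cell cycle in mammals, ranged from 513 to 607 (median 584) at stage 17, from 131 to 210.4 (median 177) at stage 23 and from 32.2 to 74 (median 46.5) at 8 dph, with no overlap. It fell 12.5-fold, by 3.64 ± 0.17 (adjusted p = 3.86e-19), the most of the list. *orc4*, another subunit of the same complex, ranged from 204 to 299 (median 252) at stage 17 and from 88.1 to 164 (median 116) at 8 dph and fell 2.29-fold (-1.20 ± 0.15), the least of the list. Between them lay *orc5* (-3.19), *orc3* (-2.04) and *orc2* (-2.02), so that genes of 1 complex fell by amounts from 2.29-fold to 12.5-fold.

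*cdc6*, which loads the MCM helicase, ranged from 175 to 257 (median 226) at stage 17, from 111 to 365 (median 224) at stage 20, from 44.5 to 83.7 (median 59.1) at stage 23 and from 7.05 to 52.4 (median 14.5) at 8 dph. The values of stages 17 and 20 overlapped, and the change of -1.87 ± 0.33 to stage 23 was among the 3 largest of that step. *cdc6* fell 11-fold in all (-3.45 ± 0.37, adjusted p = 6.03e-10), a change that was -4.31 without replicate 1 of every group and -3.18 and -3.17 without replicate 2 or 3. Its call from 0 to 4 dph (-1.01, adjusted p = 0.0316) was lost without replicate 2 or 3 (adjusted p = 0.365 and 0.109).

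The 6 genes of the MCM helicase itself moved closely together, from -2.98 for *mcm4* to -2.61 for *mcm3* over the whole course. *mcm5* ranged from 3138 to 3947 (median 3769) at stage 17 and from 481 to 877 (median 575) at 8 dph and fell 6.21-fold (-2.64 ± 0.14, adjusted p = 3.45e-17), and *mcm2* fell 6.99-fold (-2.81 ± 0.16). At the step into stage 23 the 6 genes changed by -1.39 (*mcm3*) to -0.98 (*mcm6*), and 5 of them fell at least 2-fold (4.22% of all genes). At the first step, only *mcm5* (-0.37) and *mcm6* (-0.32) of the 6 were called, where 30.1% of all genes were called lower and 34.3% higher. *cdc45*, which activates the helicase, fell by 2.54 ± 0.14, and its partners *gins1* to *gins4* lay between -2.47 (*gins2*) and -1.98 (*gins1*).

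The list of the fork clamp and ribonucleotide reductase held a pair of genes of different roles, which went opposite ways. *pcna*, the sliding clamp of DNA polymerase, ranged from 6457 to 8299.9 (median 7377) at stage 17 and from 1155 to 1805 (median 1452) at 8 dph, with no overlap, and fell 5.36-fold (-2.42 ± 0.15, adjusted p = 1.1e-15). *rrm2b* encodes the small ribonucleotide reductase subunit that, in mammals, is induced by p53 and supplies nucleotides outside S phase. It ranged from 321 to 421 (median 385) at stage 17 and from 675 to 907 (median 812) at 8 dph, with every 8 dph fish above every stage 17 fish. *rrm2b* rose by 0.69 ± 0.10 to stage 23 and by 0.40 ± 0.10 to hatching, when most members fell, and ended 0.99 ± 0.10 above stage 17 (adjusted p = 1.54e-10). The replicative partners named *rrm1* and *rrm2* in other species are not among the symbols of these tables and were not analysed here.

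*cdc25b*, a phosphatase that removes the inhibitory phosphates from CDKs, followed a course of its own. It ranged from 2521 to 3104 (median 2839) at stage 17, from 4909 to 6264 (median 5769.6) at stage 20, from 1103 to 2347 (median 1819) at stage 23 and from 717 to 919 (median 831) at hatching. Every stage 20 fish lay above every fish of the other stages. The rise to stage 20 was 1.04 ± 0.10 (adjusted p = 3.54e-10), the change to stage 23 was -1.79 ± 0.11 (adjusted p = 8.07e-15), and no step after hatching was called. The CDC14 phosphatases, which in yeast reverse CDK phosphorylation, changed less: *cdc14ab* fell by 1.27 ± 0.086 and *cdc14b* by 0.98 ± 0.06.

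**Figure D4:**
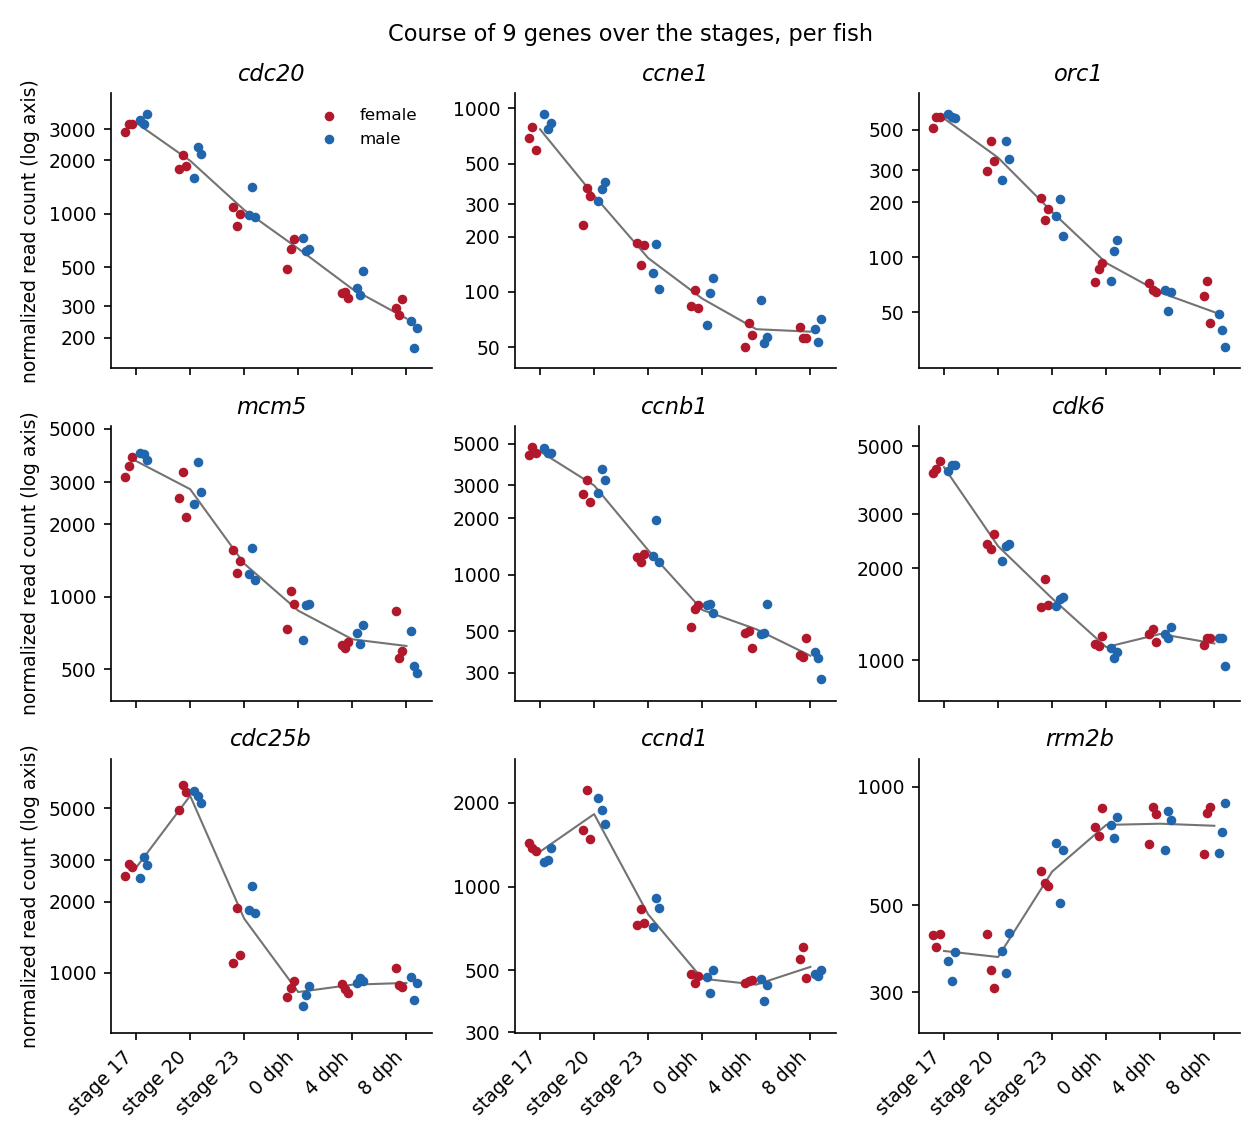
Normalized read counts (y axis, log scale) of *cdc20*, *ccne1*, *orc1*, *mcm5*, *ccnb1*, *cdk6*, *cdc25b*, *ccnd1* and *rrm2b* in each fish over the 6 stages (x axis), females and males in separate colours, with a line through the stage means. Most panels fall at each stage, *cdc25b* and *ccnd1* are highest at stage 20, and *rrm2b* rises from stage 20 to hatching.

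Of the A and B cyclins with CDK1, which drive entry into mitosis, 5 of 6 tested members fell, each by at least 2-fold. *ccnb1*, the main mitotic cyclin, ranged from 4357 to 4786 (median 4476) at stage 17, from 1169.8 to 1969.7 (median 1249.5) at stage 23 and from 276 to 457 (median 367) at 8 dph, with no overlap between these stages. It fell 13-fold (-3.71 ± 0.13, adjusted p = 1.47e-21). *ccna2*, the cyclin of S phase and early mitosis, fell 9.41-fold (-3.23 ± 0.12). *cdk1*, the kinase that both cyclins need, ranged from 4171 to 5115 (median 4447) at stage 17 and from 675 to 999 (median 921) at 8 dph and fell 5.33-fold (-2.42 ± 0.11). *ccna1*, the A cyclin that mammals use in the testis, was on 0 to 19 reads per fish and was called higher (1.68, adjusted p = 0.0117). Without replicate 1 the change was 2.35, and the call was lost without replicate 2 or 3 (adjusted p = 0.128 and 0.0667).

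The mitotic kinases had the lowest list median, -3.02, and all 4 fell at least 2-fold. *plk1*, which acts from mitotic entry to cytokinesis, ranged from 4816 to 6365 (median 5678) at stage 17 and from 433 to 741 (median 634) at 8 dph and fell 9.72-fold (-3.28 ± 0.14, adjusted p = 6.32e-20). *aurka*, the kinase of the spindle poles, ranged from 2536 to 2680.2 (median 2614) and from 232 to 372 (median 309) at the same stages and fell 9.02-fold (-3.17 ± 0.14). *aurkb*, the kinase of the chromosomal passenger complex, fell by 2.87 ± 0.11, and *plk4*, which starts centriole duplication, by 2.32 ± 0.087, the least of the 4. No fish of stage 17 overlapped with a fish of 8 dph in any of the 4 genes.

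All 8 condensin and topoisomerase II genes fell at least 2-fold over the whole course (median -2.58). All 8 were called lower at the step into stage 23 and all 8 at the step into hatching, where 28.1% and 24.7% of all genes were. *ncapd2*, a subunit of condensin I, ranged from 5648 to 6865 (median 6409.8) at stage 17 and from 635 to 869 (median 807) at 8 dph and fell 8.54-fold (-3.09 ± 0.083, adjusted p = 1.45e-24). The other subunits particular to condensin I lay at -2.84 (*ncapg*) and -2.60 (*ncaph*). Those of condensin II lay at -2.77 (*ncapd3*), -2.05 (*ncaph2*) and -1.69 (*ncapg2*). *ncapg2* ranged from 787 to 958 (median 903) at stage 17 and from 955 to 1392 (median 1273) at stage 20 and was called higher at that step (0.49 ± 0.12, adjusted p = 0.000718). *top2a*, the topoisomerase II of dividing cells, fell by 2.55 ± 0.11, and *top2b*, which non-dividing cells such as neurons also use, fell by 1.93 ± 0.081.

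At the centromere and kinetochore, where chromosomes attach to the spindle, all 15 tested members were lower at 8 dph, 14 of them by at least 2-fold (median -2.21). *cenpe*, a kinesin that moves chromosomes to the spindle equator, ranged from 3847 to 4632 (median 4496) at stage 17, from 1428 to 1979 (median 1763) at stage 23, from 541 to 782 (median 576) at hatching and from 489 to 724 (median 625) at 8 dph. It fell 7.61-fold (-2.93 ± 0.10, adjusted p = 1.05e-21), with -1.48 ± 0.10 at the step into hatching and no call after it. *ndc80*, which binds the microtubule ends, fell by 2.12 ± 0.091. *cdca9* had the smallest change of the list (-0.95, adjusted p = 0.0308), on 5 to 156 reads per fish. That call was lost without any 1 replicate number (adjusted p from 0.065 to 0.112), and its call between 4 and 8 dph (-1.30, adjusted p = 0.0215) was lost without replicate 2 or 3 (adjusted p = 0.0724 and 0.229).

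All 10 genes of the spindle checkpoint, the APC/C and separase fell, 9 by at least 2-fold (median -2.42). *cdc20*, which activates the APC/C at the end of metaphase, ranged from 2891 to 3660.2 (median 3198) at stage 17, from 1586 to 2366 (median 2006) at stage 20, from 849 to 1408 (median 994) at stage 23, from 486 to 733 (median 629) at hatching and from 175 to 329.8 (median 258) at 8 dph. It fell 13.5-fold (-3.75 ± 0.13, adjusted p = 4.89e-22), the largest decrease of the 102 members. *cdc20* was also called lower at every step, from -0.68 ± 0.11 at the first to -0.57 ± 0.12 at the last (adjusted p = 0.00156). *espl1*, the separase that cuts cohesin, fell 9.71-fold (-3.28 ± 0.086), and the checkpoint genes *bub1* and *mad2l1* changed by -2.43 ± 0.16 and -2.40 ± 0.12. The core APC/C subunits, which many non-dividing cells also hold, changed by -2.27 (*cdc16*), -1.66 (*cdc23*), -1.61 (*cdc27*) and -0.85 (*cdc26*).

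Of the 19 tested members outside the role lists, a mixed group, 16 were lower, 2 were higher and 1 was not called, with a median of -1.44. *cdca2*, a phosphatase partner on chromosomes at the end of mitosis, ranged from 2408 to 2969.5 (median 2846) at stage 17 and from 235 to 337 (median 294) at 8 dph and fell 10.4-fold (-3.38 ± 0.12). It had the largest decrease of any member between 0 and 4 dph (-1.18 ± 0.11, adjusted p = 4.13e-10). *cdc37l1*, related to an HSP90 co-chaperone, fell by 1.13 ± 0.14 at the first step, 1 of the 3 largest decreases there. *aurkaip1*, a mitochondrial ribosomal protein gene in mammals, was called higher at the step into hatching (0.49 ± 0.10, adjusted p = 0.000145) and lower over the whole course (-0.69 ± 0.10). *cdc123*, a translation initiation assembly factor, was the 1 tested member with no call between stage 17 and 8 dph (0.06, adjusted p = 0.493).

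The pair that rose here was *cdcp1b* and *cenpv*. *cdcp1b*, named for a CUB domain membrane protein, ranged from 229 to 313 (median 262) at stage 17 and from 682 to 779 (median 726) at 8 dph, with no overlap, and rose by 1.40 ± 0.076 (adjusted p = 3.49e-17). It was called higher at the first step (0.73), into stage 23 (0.27 ± 0.073) and from 0 to 4 dph (0.24 ± 0.072, adjusted p = 0.0075), the latter lost without replicate 2 or 3 (adjusted p = 0.0597 and 0.123). *cenpv*, named for a centromere protein, ranged from 78.5 to 133 (median 104) and from 214 to 312 (median 267) and rose by 1.21 ± 0.13 (adjusted p = 8.7e-10). The 6 members called higher over the whole course were thus *ccnd2a*, *e2f5*, *rrm2b*, *ccna1*, *cdcp1b* and *cenpv*.

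Of the log2 decrease between stage 17 and 8 dph, the median member of the 95 called lower had completed 10.9% by stage 20, 47.4% by stage 23 and 79.2% by hatching. By median, the D and E cyclins with their kinases were ahead at stage 20 (24%) and behind at hatching (69.9%). Their genes did not share this course, running from -165% (*ccndx*, which had risen) to 57.4% (*ccnd3*) by stage 20. By hatching they ran from 49.6% to 104%. The Aurora and Polo kinases had a median of 39% by stage 23, and condensin and topoisomerase II genes one of 87.1% by hatching. Higher medians by hatching were those of the CDC25 and CDC14 phosphatases (103%) and the E2F factors (89.8%). These shares are descriptions of the same fits, not scaled to the length of the steps, and no difference between lists was tested.

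Ratios of 2 members within a fish do not depend on how its library was scaled, and 8 pairs, picked after their values were seen, are given here as a description with no test. The log2 ratio of *ccne1* to *ccnd1* ranged from -1.17 to -0.405 at stage 17 and from -3.43 to -2.81 at 8 dph, a difference of -2.28 ± 0.14 (SE, 6 fish at each stage). That of *orc1* to *orc4* went from 0.976 to 1.52 at stage 17 down to -1.87 to -0.63 at 8 dph, a difference of -2.44 ± 0.19. For *cdc20* to *cdc27*, APC/C activator to core subunit, the difference was -2.16 ± 0.15, and for *pcna* to *rrm2b* it was -3.41 ± 0.18. Smaller differences were seen for *ccnd1* to *ccnd2a* (-1.92 ± 0.35), *ncapg* to *ncapg2* (-1.16 ± 0.080), *cdk4* to *cdk6* (-0.75 ± 0.063) and *top2a* to *top2b* (-0.61 ± 0.11). The fish of both stages were apart in all 8 pairs except *top2a* to *top2b*.

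Genes of the same pathway outside the rule were counted from lists drawn up alongside the role lists, with earlier results of these data known. Of all genes, 39.4% were called lower at 8 dph and 48% higher. Of 31 other replication genes, all 31 were called lower at 8 dph than at stage 17 (median -2.41), led by the licensing inhibitor *gmnn* (-3.56), the licensing factor *cdt1* (-3.53) and the replisome gene *wdhd1* (-3.29). Of 40 other mitosis genes, 39 were lower and none higher (median -2.53), led by *mki67* (-3.27), a marker of cycling cells, the transcription factor *mybl2b* (-3.06) and the cytokinesis gene *ect2* (-3.00). Of 13 DNA damage and G2 checkpoint kinases and their partners, all 13 were lower (median -1.61), led by *atm* (-2.99), *atr* (-2.96) and *wee1* (-2.72).

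For the brakes of the cycle, the counts lay close to those of all genes. Of 15 tested CDK inhibitors, pocket proteins and related genes, 7 were higher, 5 lower and 3 not called (median 0.17), where 48% of all genes were higher and 39.4% lower (median 0.24). The largest changes were decreases, of the pocket protein genes *rb1* (-2.08) and *rbl1* (-1.95) and the CDK inhibitor gene *cdkn1ca* (-1.81). Of those that rose, *fzr1b*, an APC/C activator of resting and G1 cells (1.68), and *ccng2*, a cyclin linked to arrest (1.55), were picked after their values were seen. Of 15 cyclins and CDKs that act in transcription rather than division, 14 were lower (median -1.23), with *cdk8* at -2.22 and *cdk13* at -2.15, and *cdk19*, the paralog of *cdk8*, was higher (2.73).

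Between the sexes, *ccnd2a* was the 1 member called over all stages, where 6.13% of all genes were called. This share and those for single stages below include genes of the X and Y chromosomes. The paper describes higher expression of the X in females and expression of the Y in males alone. How many of the called genes lie on these chromosomes was not counted. The *ccnd2a* gene lies on the X, as given below, and whether its difference exceeds that of other X genes was not tested. For *ccnd2a*, the 3 females at stage 17 had 1136, 1101 and 1261 normalized read counts and the 3 males 395, 645 and 467. At 8 dph the females had 1542, 1565 and 1669 and the males 853, 698 and 744. Females lay above males with no overlap at each of the 6 stages, by 2.32-fold at stage 17, 2.18-fold at stage 20, 1.95-fold at stage 23, 2.09-fold at hatching, 1.92-fold at 4 dph and 2.08-fold at 8 dph (ratio of means, 3 fish per sex). Over all stages the difference was -1.07 for males minus females on the log2 scale (edgeR adjusted p = 6.26e-19). Of the 63 members whose chromosome the study's gene tables give, *ccnd2a* was the 1 on chromosome 19, the X chromosome of this species (females XX, males XY).

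At single stages, *ccnd2a* was the 1 member called between the sexes at stages 17 and 20 and at 0 and 4 dph (4.42%, 4.63%, 4.73% and 4.73% of all genes). At stage 23, where 4.92% of all genes were called, *cdc25b* was also called higher in males (0.50, adjusted p = 0.035). Its females had 1103, 1891 and 1192 and its males 1852, 2347 and 1787, which overlap, and the call was lost without replicate 1 or 3 (adjusted p = 0.324 and 0.509). The *cdc25b* call was also lost without female 1, female 3 or male 2 alone (adjusted p = 0.37, 0.309 and 0.381) and in a fit of that stage only (0.354). At 8 dph, where 4.83% were called, *espl1* was also called lower in males (-0.57, adjusted p = 0.000947). Its females had 405, 391 and 401 and its males 273, 275 and 267, with no overlap. The *espl1* call held without each single library and with DESeq2, and was lost without replicate 3 of every group (-0.56, adjusted p = 0.111). In the other 5 stages the sexes differed in *espl1* by at most 0.10 on the log2 scale. At stage 17 they also did not overlap, in the other direction and without a call (means of 2931 in females and 3136 in males).

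**Figure D5:**
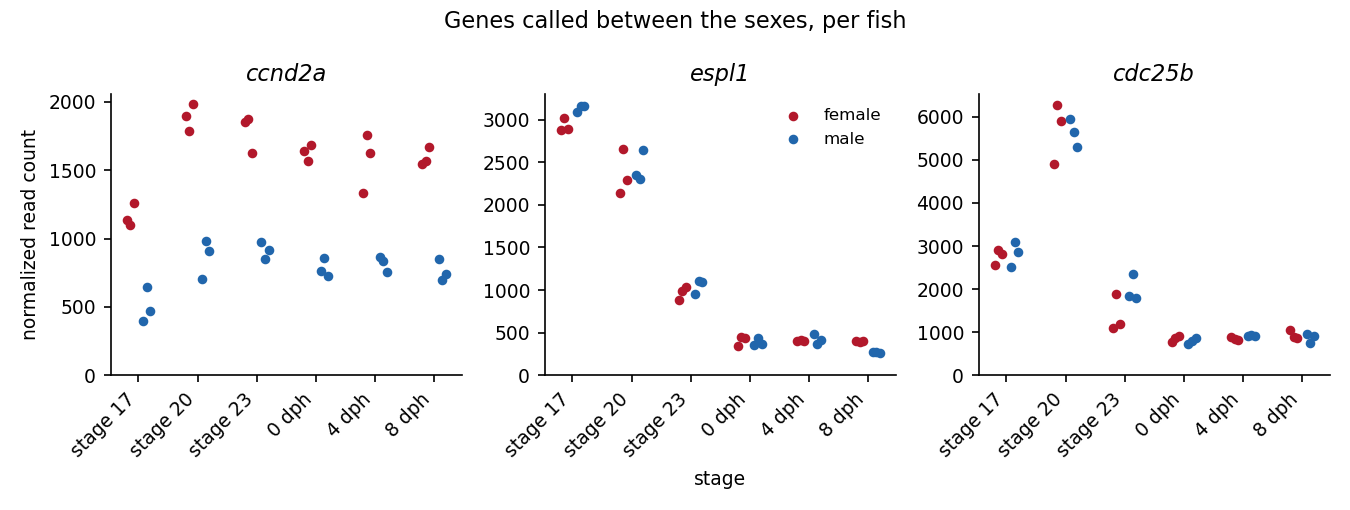
Normalized read counts of *ccnd2a*, *espl1* and *cdc25b* (y axis) in each fish by stage (x axis), females and males in separate colours. Females lie above males at all 6 stages for *ccnd2a*, the sexes are apart at 8 dph for *espl1*, and they overlap at stage 23 for *cdc25b*.

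At 8 dph, 88 of the 102 tested members had lower fitted values in males. In either direction, 25 of the 102 (24.5%) had an unadjusted p under 0.05, against 7.98% of all genes, and the median of the members was -0.22 against 0.01 for all genes. Only *ccnd2a* and *espl1* of the members passed the adjustment, and the lowest adjusted p of the other members was 0.14. The direction changed from stage to stage. At 4 dph it was the reverse, with 78 members higher in males and 4 (3.92%) under an unadjusted 0.05, against 7.75% of all genes. At 0 dph 79 members were lower in males and 10 (9.80%) were under 0.05, against 7.98% of all genes. At stages 17, 20 and 23, 60, 64 and 65 members were higher in males. The median distance of the members from their stage mean was 0.22, -0.01 and 0.06 in the 3 females of 8 dph and 0.00, -0.14 and -0.18 in the 3 males, so that the sexes overlapped. Summed muscle markers also varied within this stage, from 4.19% to 6.26% of reads, and their part in this was not tested.

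Whether a change between adjacent stages differed by sex was tested with edgeR for each step, with this choice added after the data were seen. No member was called at any of the 5 steps, where 0%, 0.00451%, 0%, 0% and 0.0135% of all genes were called in order. The numbers of members with an unadjusted p under 0.05 were 1, 1, 7, 7 and 26 with edgeR and 1, 1, 9, 8 and 25 with DESeq2, which also called 0 at each step. As shares, the edgeR numbers were 0.98%, 0.98%, 6.86%, 6.86% and 25.5% of members, against 4.52%, 2.90%, 3.56%, 3.35% and 3.15% of all genes. At the last step 87 of 102 members had the more negative change in males, but the lowest adjusted p was 0.79. In the test of any stage-by-sex difference, which called 0.0451% of all genes, edgeR called 0 members (5 with an unadjusted p under 0.05, lowest adjusted p 0.485) and DESeq2 called 0 (8 with an unadjusted p under 0.05).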

How the data were processed

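Single whole fish were sequenced as stranded polyA libraries, 3 per sex and stage. The authors trimmed reads with Trimmomatic 0.39, aligned them with HISAT-3N to GAculeatus_UGA_version5, handled alignments with SAMtools 1.17 and made the read counts with HTSeq 2.0.2 against NCBI annotation release 100 with the strand reversed, keeping uniquely mapped reads and adding up paired and orphan reads. The normalized signal was made by the authors by dividing those counts by 1 DESeq2 (1.44.0, R 4.4.1) size factor per fish, after leaving out genes with under 10 reads over all fish, which reduced 25258 genes to 24388. Unique mapping can take reads from near-identical gene copies. Counting error is small for most members at 8637205 to 52089185 counted reads per fish and large for those under about 100 reads.

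Values per fish are the deposited normalized read counts. Tests used the deposited counts in edgeR 4.0.16 (R 4.3.3, limma 3.58.1): TMM, filterByExpr on the 12 groups, glmQLFit with 1 factor of 12 groups over all 36 fish, and glmQLFTest. Stage contrasts were averaged over both sexes, sex contrasts are males minus females, and p-values were adjusted by Benjamini-Hochberg over 22168 genes in each contrast. SEs are those of the fitted log2 change. Sex over all stages was fitted as stage plus sex. The code of the fit was checked on simulated counts with few changed genes and the same spread for all genes. As most genes differed among these stages, that check does not measure error rates in these data. Alternatives were DESeq2 1.42.0, its size factors in edgeR, total counts only, no filter on low counts, leaving out each replicate number or, for sex calls, each library, the replicate number as a block, only members in a role list, 1 sex only and 1 stage only. The tests of steps by sex and the within-fish ratios were added after seeing the data.

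Members, role lists, marker lists and the rule for named genes were chosen with earlier results of these data known. Named were members called between the sexes, the extremes of each role list, up to 8 members that rose, the 3 largest changes each way at each step, a list of best-known genes and up to 3 genes of each reference list. Of that list of best-known genes, 4 symbols were not among those of the tables. Python 3.11.15 with numpy 2.4.6, pandas 2.3.3, scipy 1.17.1 and matplotlib 3.10.9 was used for summaries and figures. Of the 104 members, 102 matched a RefSeq gene by symbol, and 63 had a chromosome in the study's gene tables. No sequences were used here.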

Additional observations from a re-analysis of the deposited data

How the results depend on the processing

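No median or named result changed sign in any alternative in which it was computed. Most alternatives were run on all 32 counts and medians and all 75 named results, while the fits of 1 sex took in only the 18 counts and medians of the stage contrasts, and the fits of 1 stage only the comparisons of the sexes within it. DESeq2 and its size factors each gave 33 members lower from 0 to 4 dph in place of 50, and 3 and 2 higher in place of 1. DESeq2 moved the median between stage 17 and 8 dph to -2.22. Total counts only moved the medians of the first 3 steps to -0.11, -0.69 and -0.90, with shifts of all genes as given in the report. They gave 32 members lower at the first step in place of 48. Females alone gave 1 member higher into stage 23, 0 higher from 0 to 4 dph, 0 lower (and still 1 higher) from 4 to 8 dph, and medians of -0.036 for that step and -2.24 over the whole course. Males alone gave 27 lower at the first step, 1 higher into hatching, 13 lower and 0 higher from 0 to 4 dph, 9 lower and 0 higher from 4 to 8 dph, and medians of -0.38 for that step and -2.48 over the whole course. With 18 fish in place of 36, these fits have fewer samples. Members in a role list alone gave 1 higher into stage 23, 1 higher into hatching and 0 higher from 0 to 4 dph, by construction. A fit of stage 23 alone gave 1 member between the sexes in place of 2. Leaving out a replicate number gave 2 to 4 members higher into hatching, 23 to 57 lower and 0 to 1 higher from 0 to 4 dph, 2 to 18 lower and 1 to 2 higher from 4 to 8 dph, 93 to 94 lower over the whole course, and 1 to 3, 1 to 2 and 1 to 2 members between the sexes at stages 20 and 23 and at 8 dph. These fits have 24 fish, and the cause of any other difference was not tested. Among named members, calls of *cdc25b* and *espl1* between the sexes and of *ccna1*, *cdca9*, *cdc6*, *cdcp1b* and *ccnd3* between stages were lost as given in the report. The ratio of *cdc20* to *cdc27* differed by -1.91 in females and -2.41 in males.

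Replicate numbers were not treated as pairs: over 18 same-numbered female and male pairs the correlation of deviations ran from -0.107 to 0.467 (mean 0.0831), with 7 above 0.1. At 0 dph, however, all 3 same-numbered pairs were above 0.1 (0.467, 0.258 and 0.232) and each fish correlated best with its own number. The other pairs of that stage lay between -0.304 and 0.132. At 8 dph each fish also correlated best with its own number, but more weakly (0.132, 0.071 and 0.083). The other pairs of 8 dph lay between -0.107 and 0.028. Both are hints from the data and not from the design. With the replicate number as a block, 47, 90, 85, 50 and 24 members were lower at the 5 steps and 95 over the whole course, and no call of a named result changed. Depth limits members with few reads (*ccna1*, *ccnd3*, *ccndx*, *e2f5*, *cdca9*, *cdc6*), and 3 fish per sex limit the sex calls.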
